A study of Homo sapiens with 24 samples.

Results

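The genes of the cytosolic ribosome were followed across 4 genotypes of human embryonic stem cells (hESCs) and 2 stages of differentiation. Members were taken by symbol: every protein-coding gene of the deposited count table named RPL or RPS with a number and an optional A, L, X or Y ending, together with RPLP0, RPLP1, RPLP2, RPSA and FAU, without pseudogenes, RPS6K kinases and genes of chromosome Y. This gave 82 of the 61551 genes used, 49 of the large subunit and 33 of the small subunit. All libraries came from H9 (WA09), an established hESC line. The hHAR123 cells were unedited and kept the human form of HAR123, an enhancer of the class of human accelerated regions. HAR123-KO cells lacked it, and cHAR123 and mHAR123 cells carried the chimpanzee or the mouse ortholog in its place. Each genotype was sequenced as hESCs, with no differentiation treatment, and as neuroectoderm after 5 days with Noggin and SB431542, which block BMP and TGF-beta signalling. There were 3 libraries for each genotype and stage, 24 in all. The study used 2 independent clones of each genotype, hHAR123 included, so some of the 3 libraries of a group share a clone. The sources used here do not say which library came from which clone, and p-values measure the spread between these libraries. HAR123 is not a gene of the table, so the counts hold no direct check of the edit.

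Ribosomal proteins assemble with ribosomal RNA into the small subunit, which decodes the mRNA, and the large subunit, which forms the peptide bond. Their mRNAs usually begin with a terminal oligopyrimidine (TOP) tract, a run of C and T (U in the RNA) at the cap through which mTOR signalling and LARP1 control their translation. Cells make the proteins in matched amounts, and when assembly stalls, free RPL5 and RPL11 bound to 5S ribosomal RNA inhibit MDM2 and so stabilise p53. Mutations that remove one copy of many of these genes cause Diamond-Blackfan anaemia.

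Library totals ranged from 21022748 to 35198684 counts. Pluripotency markers (POU5F1, NANOG and 6 others) fell between the stages in every genotype, 8 of 8 called each time. Summed neuroectoderm markers (PAX6, SOX1 and 6 others) reached 631 to 670 TPM in hHAR123 neuroectoderm and 206 to 218 TPM in HAR123-KO neuroectoderm, where TPM is a level scaled by gene length and library size. Summed neural crest markers reached 33.9 to 37.6 TPM in hHAR123 neuroectoderm, 573 to 592 TPM in HAR123-KO, 89.2 to 92.8 TPM in cHAR123 and 98.7 to 105.5 TPM in mHAR123. In neuroectoderm, the study's own tabulated mean counts for cHAR123 matched the libraries labelled mHAR123, and those for mHAR123 matched the libraries labelled cHAR123, whereas the HAR123-KO libraries and all hESC libraries matched their labels. Groups below follow the sample labels, and which naming is right was not tested. The counts are of whole cultures, so fewer cells of a type and less RNA per cell cannot be told apart.

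Members were among the most abundant RNAs. Averaged over the 24 libraries, 70 of 82 members lay at 100 TPM or more and 10 lay below 50 TPM. The highest levels were those of RPL41 at 1386 TPM, RPS12 at 1329 TPM and RPS2 at 1206 TPM. RPL41 encodes a very small peptide of the large subunit, and RPS2 lies near the mRNA entry channel. The lowest were RPL10L at 0.031 TPM, RPL3L at 0.21 TPM and RPS10 at 4.22 TPM. RPL10L, the testis paralogue of RPL10, had no count in 20 of the 24 libraries, where up to 3 counts cannot be told from 0. Its 4 libraries with counts were all hESCs, with 4, 2 and 2 counts in cHAR123 and 1 count in 1 mHAR123 library. RPL3L, the paralogue of RPL3 known from heart and skeletal muscle, had 1 to 25 counts per library. These TPM values rest on the length of all annotated exons of a gene, with a member median of 3064 bases. The canonical transcript, the reference transcript of each gene, had a median of 781.5 bases. RPS29, at 32.4 TPM, had 9840 exon bases and a canonical transcript of 295. Per kilobase of canonical transcript RPS12 had a mean of 24820 counts, below RPS18 at 39300 and RPLP0 at 38630. The order of members and the numbers past a TPM limit thus depend on the length used.

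Levels per gene depend on how shared exons were counted, which is not stated in the sources used here. Of the exon bases of RPS10, 40.3% lay within exons of other genes on the same strand. The share was 32.9% for RPL17, 25.9% for RPS2, 17.6% for RPL36 and 8.4% for RPL36A. The largest overlap was with a readthrough gene for RPS10 (RPS10-NUDT3), RPL17 and RPL36A, a pseudogene for RPS2 and another protein-coding gene for RPL36. These overlapping genes had mean counts per library of 0.083 for RPS10, 0 for RPL17, RPL36A and RPS2, and 229 for RPL36. Reads in the shared exons of RPS10, RPL17, RPL36A and RPS2 were thus not credited to both genes. Whether such reads were dropped was not tested. Over 5% of the exon bases overlapped in 17 members. RPS10, RPL17 and RPL36A are therefore uncertain in level and change. The table also holds 1590 ribosomal protein pseudogenes, whose counts were 10.8 to 11.6 per 100 member counts, and reads of near-identical copies could have been divided among them.

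The start regions of most members hold a run of C and T, near where a TOP tract would lie. The search asked for a run near the annotated start, not for one that begins at the cap. RefSeq start regions (GRCh38.p14) were matched for 65 members. A run of at least 8 C or T on the transcribed strand within 20 bases of the start occurred in 53 of 65 members (81.5%) and in 4720 of 27305 genes overall (17.3%). On the other strand it occurred in 3.08% of members and 14.7% of all genes. The 30 bases around the start are shown for 6 members on which the results below turn, with the longest C/T run near the start in capitals.
RPS26 (chr12:56041903-56041932, plus strand): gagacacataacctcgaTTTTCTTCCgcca
RPS28 (chr19:8321481-8321510, plus strand): tccccgaagcacgtgaCTCCTCTCCgccag
RPL28 (chr19:55385917-55385946, plus strand): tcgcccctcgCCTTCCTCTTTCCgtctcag
RPL35A (chr3:197950175-197950204, plus strand): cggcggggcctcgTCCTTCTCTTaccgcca
RPS27 (chr1:153990747-153990776, plus strand): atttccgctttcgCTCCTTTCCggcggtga
RPS27L (chr15:63157463-63157492, minus strand): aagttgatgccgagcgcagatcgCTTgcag
RPS27L was the member of these 6 without a run of at least 8 bases. Its longest run was 3 bases, against 9 bases in RPS27, its close paralogue, and 13 bases in RPL28. The sequence alone is a description and does not show whether a run begins at the cap or how it is used.

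The members together held 3.97%, 3.98% and 3.91% of the counts of the 3 hHAR123 hESC libraries and 4.474%, 4.608% and 4.604% in hHAR123 neuroectoderm. In HAR123-KO the shares were 3.83%, 3.79% and 3.82% in hESCs and 4.65%, 4.58% and 4.62% in neuroectoderm. Every neuroectoderm library lay above every hESC library. Mean shares in hESCs were 3.72% ± 0.060 (SD, n = 3) in cHAR123 and 3.81% ± 0.0072 (SD, n = 3) in mHAR123, both below 3.95% ± 0.037 (SD, n = 3) in hHAR123 with no overlap of libraries. In neuroectoderm mHAR123 reached 4.73% ± 0.028 (SD, n = 3), above every hHAR123 library, while cHAR123 at 4.52% ± 0.020 (SD, n = 3) lay within the hHAR123 range. The ratio of neuroectoderm to hESC shares was 1.155 in hHAR123, 1.211 in HAR123-KO, 1.214 in cHAR123 and 1.239 in mHAR123. After TMM scaling, which sets the typical gene equal between libraries, the ratios were 0.9409, 1.037, 1.04 and 1.087, so the direction in hHAR123 turned. TMM factors were 0.891 to 0.944 in hESCs and 1.06 to 1.11 in neuroectoderm. Statements on the stages below are therefore relative to the typical gene unless a total-count value is given beside them.

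**Figure D1:**
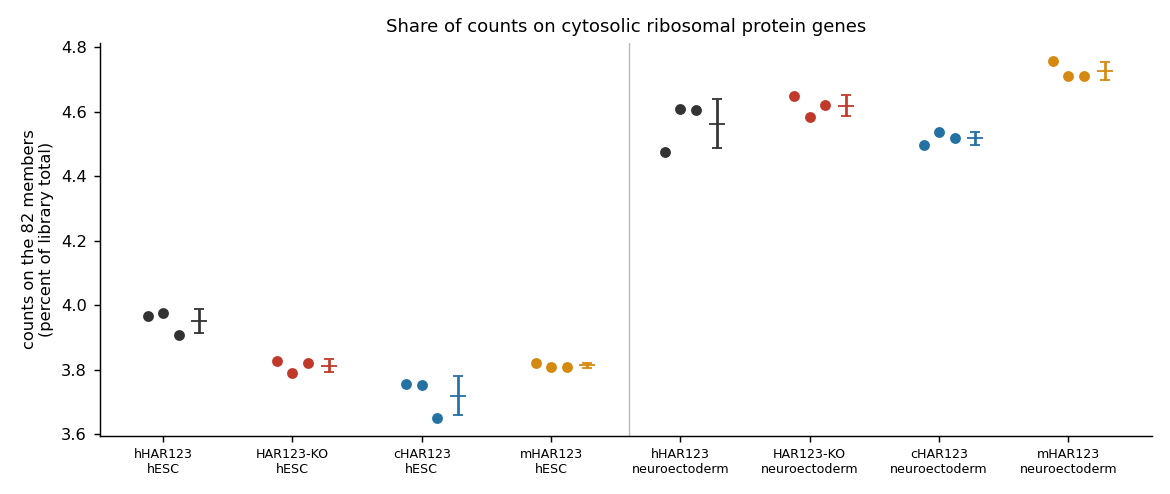
Share of each library's counts held by the 82 members, in percent, by genotype and stage, on an axis that does not start at 0. Each point is 1 library, and the bar beside each group is the mean ± SD of 3. Neuroectoderm libraries sit between 4.47% and 4.76%, hESC libraries between 3.65% and 3.98%, and the 3 edited genotypes lie below hHAR123 in hESCs.

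The first question is how the members change as hESCs become neuroectoderm. Calls are at an adjusted p under 0.01 in edgeR's quasi-likelihood test, with p-values adjusted by Benjamini-Hochberg over all genes tested, values are log2 fold changes with their standard errors, and levels are scaled CPM, the CPM taken over the TMM-scaled library total. In hHAR123, 25 of 81 tested members rose and 46 fell, against 40.3% and 39.7% of all genes. In HAR123-KO 36 of 80 rose and 32 fell (all genes 39.8% and 39.4%), in cHAR123 37 and 32 of 80 (39.5% and 39.4%), and in mHAR123 42 and 30 of 81 (39.1% and 39.5%). The members' median was -0.13 in hHAR123, 0.022 in HAR123-KO, 0.037 in cHAR123 and 0.088 in mHAR123, beside 0.049, 0.031, 0.04 and 0.03 for all genes. Scaled by total counts alone, 48 rose and 25 fell in hHAR123, 54 and 19 in HAR123-KO, 50 and 19 in cHAR123, and 52 and 19 in mHAR123, while the median of all genes moved to 0.341, 0.232, 0.245 and 0.199.

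Large falls, past 1 on the log2 scale, were few: 3 members in hHAR123, 4 in HAR123-KO, 5 in cHAR123 and 6 in mHAR123, against 21.2%, 19.1%, 20.8% and 20.7% of all genes. No member rose past that limit in any genotype, also at an unadjusted p under 0.05 or in DESeq2 (0 members each), where 24.6% of all genes did in hHAR123, 22% in HAR123-KO, 21.9% in cHAR123 and 21.3% in mHAR123. Both subunits held risers and fallers. In hHAR123 14 of 48 tested large-subunit members rose and 28 fell, and 11 of 33 small-subunit members rose and 18 fell. Of 20 Diamond-Blackfan anaemia genes 10 rose and 10 fell in hHAR123, 9 and 8 in HAR123-KO, and 10 and 8 in cHAR123 and in mHAR123. Over all genes 40.3% rose and 39.7% fell in hHAR123, with shares from 39.1% to 39.8% in the edited genotypes.

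Among the members tested, RPS26 fell most in hHAR123, HAR123-KO and cHAR123, and was exceeded in mHAR123 by the scarce RPL3L, which the low-count filter left untested in HAR123-KO and cHAR123. It encodes a small-subunit protein at the mRNA exit channel and is a Diamond-Blackfan anaemia gene (chr12:56041351-56044697, plus strand, GRCh38). Its levels in hHAR123 were 263, 267 and 275 scaled CPM in hESCs and 47.5, 52.2 and 50.5 in neuroectoderm (log2 fold change -2.42 ± 0.038, edgeR adjusted p = 9e-38). In HAR123-KO they were 256, 258 and 270.1 in hESCs and 75.3, 70.3 and 72.9 in neuroectoderm (log2 fold change -1.82 ± 0.032, edgeR adjusted p = 8.9e-51). The hESC libraries of these genotypes overlapped, whereas in neuroectoderm all HAR123-KO libraries lay above all hHAR123 libraries. In cHAR123 it fell by 2.16 and in mHAR123 it fell by 2.10.

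RPL39L, a paralogue of RPL39 known from testis and stem cells (chr3:187120948-187180908, minus strand, GRCh38), fell in every genotype. In hHAR123 it went from 22.7, 22.4 and 20.8 scaled CPM to 7.79, 7.24 and 8.13 (log2 fold change -1.50 ± 0.077, edgeR adjusted p = 1.78e-20). The stages were far apart in every genotype, with log2 fold changes of -1.51, -1.66 and -1.59 in HAR123-KO, cHAR123 and mHAR123. Its partner RPL39, at the exit tunnel of the large subunit, rose in hHAR123 from 216, 216 and 214 to 261, 259.7 and 269.7 scaled CPM (log2 fold change 0.29 ± 0.031, edgeR adjusted p = 4.06e-11). RPL17, whose readthrough overlap is given above, fell in hHAR123 from 26.6, 25.8 and 25.4 to 8.002, 7.84 and 7.11 scaled CPM (log2 fold change -1.76 ± 0.074, edgeR adjusted p = 2.36e-23) and in HAR123-KO, cHAR123 and mHAR123 too (-1.48, -1.87 and -1.79). RPL36A fell by 0.87 in hHAR123 and fell by 1.36 in mHAR123.

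RPL3L passed in mHAR123 with 17, 15 and 12 counts in hESCs and 4, 1 and 2 in neuroectoderm (log2 fold change -2.43 ± 0.51, edgeR adjusted p = 2.24e-05), and with so few counts its size is loosely set. In HAR123-KO it had 10, 13 and 10 counts in hESCs and 1, 2 and 3 in neuroectoderm. Fitted without the filter, its log2 fold change was -2.37 there (edgeR adjusted p = 0.000381), a larger fall than that of RPS26, and -1.59 in cHAR123 (edgeR adjusted p = 0.000821). Its partner RPL3, which lies near the peptidyl transferase centre, had a difference of 0.058 in hHAR123 (edgeR adjusted p = 0.0483) and rose by 0.23 to 0.31 in the edited genotypes. With total counts alone RPL3 also rose in hHAR123, by 0.35, and by 0.414 to 0.478 in the edited genotypes.

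Per length, the paralogues RPL39L and RPS27L stayed far below their partners. RPL39L was at 34.5 TPM ± 0.92 (SD, n = 3) in hHAR123 hESCs and 15.5 TPM ± 1.3 (SD, n = 3) in hHAR123 neuroectoderm, where RPL39 was at 165 TPM ± 4.6 (SD, n = 3) and 256 TPM ± 12 (SD, n = 3). RPS27L was at 3.68 TPM ± 0.13 (SD, n = 3) and 6.74 TPM ± 0.83 (SD, n = 3), with RPS27 at 660.4 TPM ± 16 (SD, n = 3) and 999 TPM ± 22 (SD, n = 3). The exon lengths used were 8825 bases for RPS27L, 1028 for RPS27, 1033 for RPL39L and 2128 for RPL39. The size of each gap depends on these lengths. Without a length, in hHAR123 hESCs RPS27L had 17.8, 18.5 and 17.4 CPM over total counts and RPS27 had 393, 374 and 358. RPL10, whose protein completes the large subunit in the cytoplasm, was at 257 TPM ± 9.2 (SD, n = 3) in hHAR123 hESCs and 319 TPM ± 5.9 (SD, n = 3) in neuroectoderm, and on the scaled CPM scale it did not pass in hHAR123 (edgeR adjusted p = 0.345) and rose by 0.15 in HAR123-KO, 0.14 in cHAR123 and 0.23 in mHAR123. With total counts alone RPL10 also rose in hHAR123, by 0.263, and by 0.347 to 0.403 in the edited genotypes. TPM carries no TMM scaling, so the size of a stage difference on it is not that of the fitted fold change.

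The largest rises were smaller than the largest falls. RPL22, an RNA-binding large-subunit protein, rose in hHAR123 from 126, 133 and 132 to 194, 183 and 182 scaled CPM (log2 fold change 0.51 ± 0.035, edgeR adjusted p = 1.52e-16) and in the edited genotypes by 0.46 to 0.69. RPS3A rose by 0.44 in hHAR123 and 0.53 in cHAR123, RPL15 by 0.55 in cHAR123 and 0.59 in mHAR123, and RPS15A by 0.43 in HAR123-KO. RPL15 is a core protein of the large subunit and the other 2 belong to the small subunit.

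RPS27L, a p53-inducible paralogue of RPS27 (chr15:63125872-63158021, minus strand, GRCh38), rose from 20.02, 20.6 and 19.3 to 31.5, 27.6 and 27.02 scaled CPM in hHAR123 (log2 fold change 0.52 ± 0.063, edgeR adjusted p = 8.89e-10). In mHAR123 it was at 26.9, 26.9 and 26.3 in hESCs and 24.6, 23.2 and 24.1 in neuroectoderm, a difference of -0.14 that did not pass (edgeR adjusted p = 0.0246). RPS27 rose by 0.25 in hHAR123 and 0.44 in mHAR123.

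The stalk recruits translation factors to the large subunit. RPLP1 fell in hHAR123 (log2 fold change -0.58 ± 0.027, edgeR adjusted p = 6.15e-22), as did RPLP2, from 414, 415 and 405 to 232, 241 and 239.8 scaled CPM (log2 fold change -0.79 ± 0.03, edgeR adjusted p = 1.08e-24), while RPLP0, the base of the stalk, had an edgeR adjusted p of 0.902 at 1611, 1584 and 1537 and 1488, 1624 and 1597 scaled CPM. RPLP0 rose in the edited genotypes, by 0.24 in HAR123-KO, 0.18 in cHAR123 and 0.26 in mHAR123. With total counts alone RPLP0 also rose in hHAR123, by 0.289, and by 0.388 to 0.437 in the edited genotypes. RPLP1 and RPLP2 fell in each of these, opposite to RPLP0, although with total counts alone the fall of RPLP1 in HAR123-KO did not pass (-0.0281, edgeR adjusted p = 0.264). In the 5S RNP, RPL5 had 652, 668 and 677 scaled CPM in hHAR123 hESCs and 786, 776 and 784 in neuroectoderm (log2 fold change 0.23 ± 0.027, edgeR adjusted p = 3.54e-10). RPL11 had 519, 505 and 501 and 448, 475 and 471 (log2 fold change -0.13 ± 0.029, edgeR adjusted p = 0.000166). The opposite directions of the partners depended on the scaling: with total counts alone both rose, RPL5 by 0.527 and RPL11 by 0.166. In mHAR123 RPL5 rose by 0.40 and RPL11 did not pass (edgeR adjusted p = 0.0462).

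**Figure D2:**
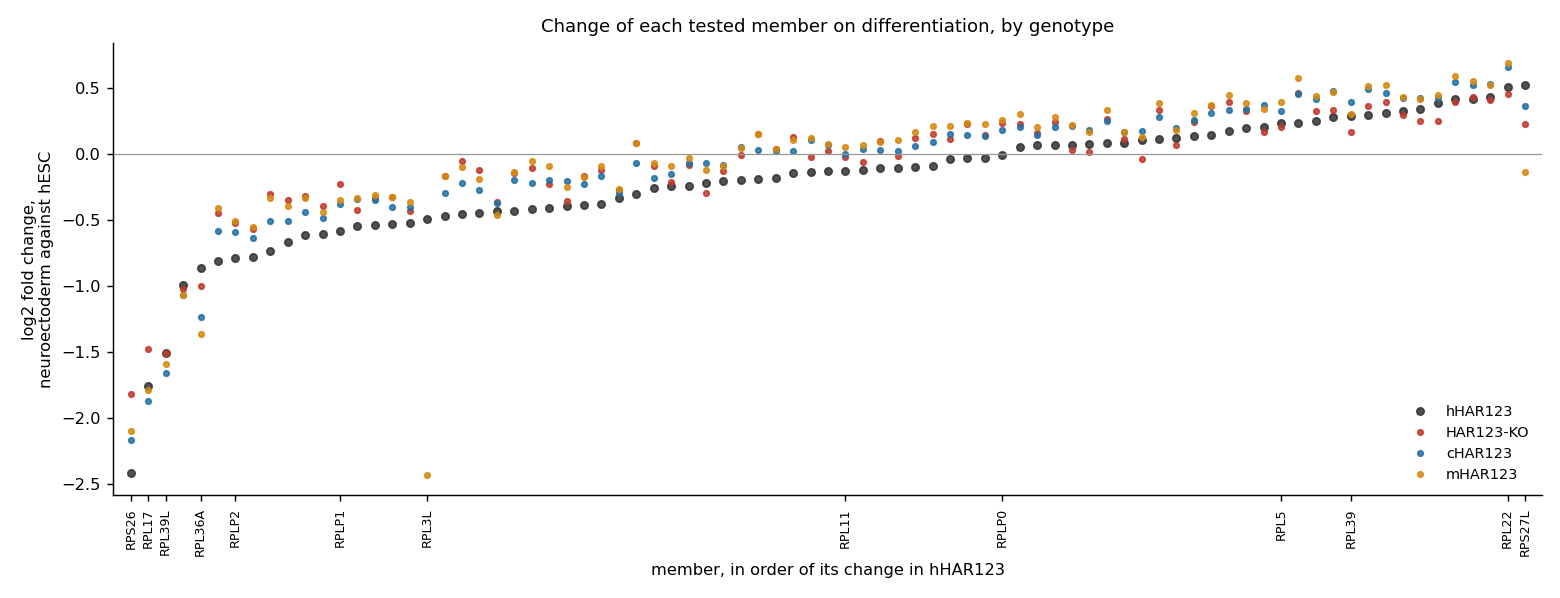
Log2 fold change of each tested member between neuroectoderm and hESCs, by genotype (colour), with members on the x axis in the order of their change in hHAR123 and some of those described named there. Most members lie within 0.5 of 0, and RPS26, RPL17 and RPL39L lie below -1 in every genotype.

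**Figure D3:**
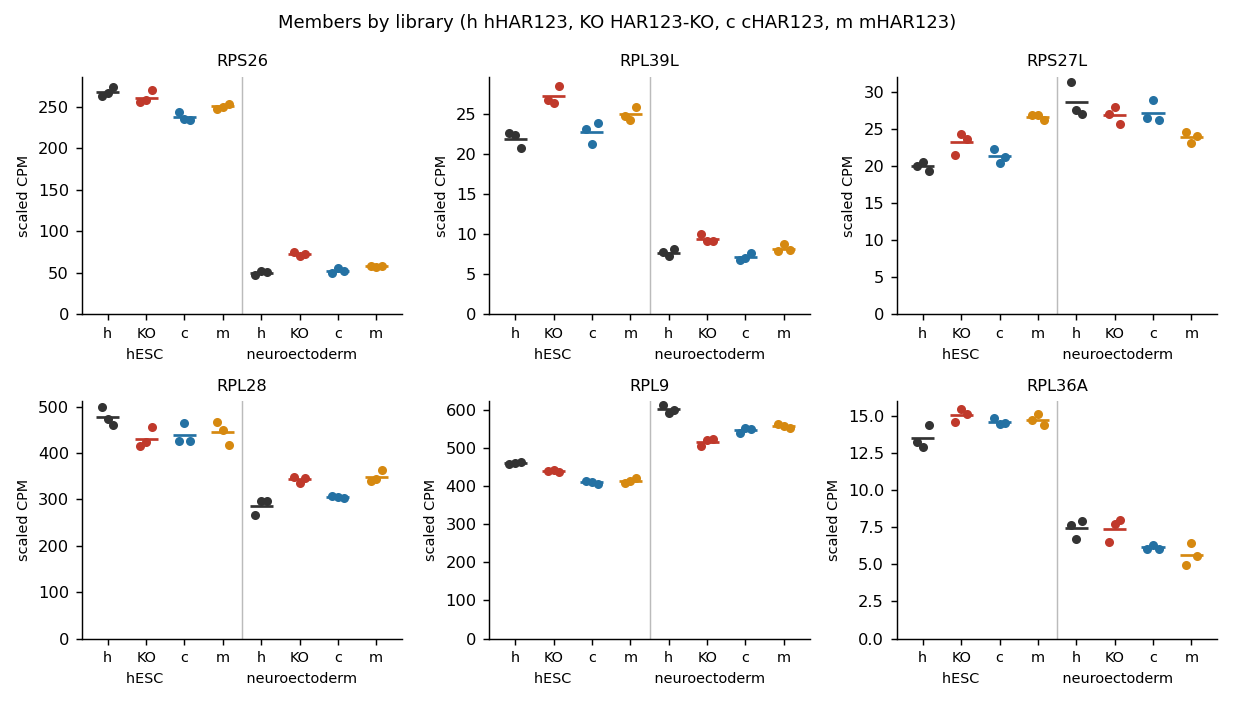
Scaled CPM of selected members in each of the 24 libraries by genotype and stage, 1 point per library, with a line at the group mean. RPS26 and RPL39L are lower in every neuroectoderm library, and RPS27L is highest among hESCs in mHAR123.

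Other genes of ribosome production were lower in neuroectoderm. Over all genes 40.3% rose and 39.7% fell in hHAR123, and 39.4% to 39.5% fell in the edited genotypes. Of 42 ribosome biogenesis factors, which process ribosomal RNA and assemble subunits, 40 fell in hHAR123, 42 in HAR123-KO, 40 in cHAR123 and 41 in mHAR123, with none rising in these comparisons in edgeR, also at an unadjusted p under 0.05 or in DESeq2 (0 each), and a median of -1.62 in hHAR123. RRS1, an assembly factor of the large subunit, fell by 3.34 and BOP1 fell by 3.02. Of 75 tested mitochondrial ribosomal protein genes, 64 fell in hHAR123 (median -0.98) and 69 in mHAR123. The paralogue RPL22L1, which the symbol rule leaves out, went from 53.04, 55.9 and 54.7 to 9.88, 10.1 and 9.602 scaled CPM in hHAR123 (log2 fold change -2.46 ± 0.06, edgeR adjusted p = 2.11e-31). Its partner RPL22 rose in the same libraries. Likewise RPL36AL fell by 1.34 in hHAR123. Among 21 regulators of ribosomal protein gene expression, 2 rose and 14 fell in hHAR123, led by MYCN (-3.74) and MYC (-3.43), which drive ribosome production. Of 15 other TOP mRNAs, 7 rose and 6 fell, near the shares of all genes, led by VIM, an intermediate filament gene (2.94). Of 11 TOP RNAs that host small nucleolar RNAs 2 rose and 8 fell. Of 10 chaperones and importers of ribosomal proteins 2 rose and 8 fell, led by GRWD1 (-1.82).

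The next question is whether the members differed in hESCs that had lost HAR123 or carried an ortholog in its place. The edited genotypes came from CRISPR-edited clones, whereas hHAR123 was unedited. At either stage an effect of HAR123 therefore cannot be told apart from one of editing or clone history. More tested members fell than rose in each edited genotype. In HAR123-KO 21 of 81 members fell and 2 rose, against 5.29% and 7.06% of all genes, with a member median of -0.069. In cHAR123 59 of 81 fell and 0 rose (8.6% and 7.72%), with a median of -0.12 and no rise at an unadjusted p under 0.05 or in DESeq2. In mHAR123 52 fell and 2 rose (10.2% and 9.02%), with a median of -0.10. Median changes of all genes were within 0.01 of 0. The share of counts from the mitochondrial genome moved the other way, at 4.02% to 4.098% in hHAR123 hESCs and 4.29% to 4.48% in the edited hESC libraries, with no overlap. In neuroectoderm it was also higher in the edited libraries, although more members rose than fell in HAR123-KO and mHAR123 there. It was 2.16% to 2.21% in hHAR123 and 2.55% to 2.63% in HAR123-KO. In cHAR123 it was 2.31% to 2.34% and in mHAR123 2.40% to 2.43%. The part of this share in the members' differences was not tested. The 3 comparisons share the hHAR123 libraries, so they are not independent of each other. Of the 81 members tested in hESCs and the 80 in neuroectoderm, 0 differed by more than 1 on the log2 scale between genotypes in edgeR, also at an unadjusted p under 0.05 or in DESeq2. RPL3L was not tested in neuroectoderm, where it had 0.51, 0.19 and 0.19 scaled CPM in hHAR123 and 0.04, 0.08 and 0.11 in HAR123-KO. Fitted without the low-count filter it differed by -1.84 in HAR123-KO (unadjusted p = 0.0107, edgeR adjusted p = 0.0375), -0.584 in cHAR123 (edgeR adjusted p = 0.653) and -1.66 in mHAR123 (unadjusted p = 0.0153, edgeR adjusted p = 0.105), none of which passed. Past that limit lay, higher and lower, 0.96% and 0.221% of all genes in HAR123-KO hESCs, 0.626% and 0.225% in cHAR123 hESCs and 1.03% and 0.199% in mHAR123 hESCs. In neuroectoderm it was 4.92% and 4.52% in HAR123-KO, 0.522% and 0.456% in cHAR123 and 0.603% and 0.429% in mHAR123. In HAR123-KO the number of members that fell ranged from 9, without hHAR123 replicate 2 or HAR123-KO replicate 1, to 35, without HAR123-KO replicate 3, and was 11 with total counts alone. In mHAR123 it was 26 with total counts alone.

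RPS29, a small-subunit protein of the head, was lowest relative to hHAR123 in cHAR123. It had 208, 213 and 203 scaled CPM in hHAR123 and 183, 179.8 and 160.4 in cHAR123 (log2 fold change -0.23 ± 0.035, edgeR adjusted p = 2.98e-06), with no overlap. In mHAR123 it had 179, 175 and 181 (log2 fold change -0.20 ± 0.028, edgeR adjusted p = 1.03e-07). RPS23, of the decoding centre, fell by 0.21 in cHAR123 and RPL23 fell by 0.21. RPL22 fell by 0.20 and RPL11 fell by 0.18 in mHAR123. In HAR123-KO the largest falls were those of RPL19, with 729.6, 707 and 687 scaled CPM in hHAR123 and 622, 611 and 653 in HAR123-KO (log2 fold change -0.15 ± 0.025, edgeR adjusted p = 1.41e-05), RPL29 (-0.15) and RPS7 (-0.13). The sizes are small, and the median standard error over the members in HAR123-KO was 0.025 on the log2 scale.

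Only the paralogues RPS27L and RPL39L rose in hESCs. RPS27L stood at 20.02, 20.6 and 19.3 scaled CPM in hHAR123, 21.6, 24.4 and 23.7 in HAR123-KO, 22.4, 20.4 and 21.2 in cHAR123 and 26.9, 26.9 and 26.3 in mHAR123. It rose in mHAR123 (log2 fold change 0.44 ± 0.055, edgeR adjusted p = 1.78e-08) and in HAR123-KO (log2 fold change 0.24 ± 0.06, edgeR adjusted p = 0.00233), and in cHAR123 it differed by 0.12 (edgeR adjusted p = 0.15). RPL39L rose in HAR123-KO (log2 fold change 0.34 ± 0.057, edgeR adjusted p = 1.57e-05) and in mHAR123 (log2 fold change 0.21 ± 0.056, edgeR adjusted p = 0.00358). The RPS27L call in HAR123-KO was lost without hHAR123 replicate 3 (edgeR adjusted p = 0.019), HAR123-KO replicate 2 (0.0236) or HAR123-KO replicate 3 (0.0115), and in DESeq2 (0.0362). The RPL39L call in mHAR123 was lost without hHAR123 replicate 3 (edgeR adjusted p = 0.0372) or mHAR123 replicate 3 (0.0274), and in DESeq2 (0.0475). Of 20 p53 target genes, 10 rose in HAR123-KO, 5 in cHAR123 and 15 in mHAR123 hESCs, against 7.06%, 7.72% and 9.02% of all genes, and 0, 0 and 1 fell. In edgeR 1 of them was lower in HAR123-KO and 2 in cHAR123 at an unadjusted p under 0.05, and 0 and 1 fell in DESeq2. The rises were led in mHAR123 by GDF15 (1.39) and CDKN1A, a cell cycle inhibitor (1.23). Of the 42 biogenesis factors 2, 23 and 22 fell in HAR123-KO, cHAR123 and mHAR123, against 5.29%, 8.6% and 10.2% of all genes, and 0 rose in each in edgeR, also at an unadjusted p under 0.05 or in DESeq2. In mHAR123 neuroectoderm 0 of the 20 p53 target genes rose in edgeR, against 8.8% of all genes. There 1 was higher at an unadjusted p under 0.05, and 0 rose in DESeq2. How many fell there, and the counts in HAR123-KO and cHAR123 neuroectoderm, are not given here.

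In neuroectoderm the genotypes differed in another way. In HAR123-KO 38 of 80 members rose and 15 fell, against 24.2% and 19.9% of all genes, with a member median of 0.081. In cHAR123 3 rose and 10 fell (5.9% and 3.99%), with a median of -0.016. In mHAR123 27 rose and 6 fell (8.8% and 5.21%), with a median of 0.063. The comparisons again share the hHAR123 libraries. With total counts alone, 20 rose and 21 fell in HAR123-KO, 2 and 14 in cHAR123, and 20 and 13 in mHAR123, so the direction of the balance in HAR123-KO depended on the scaling. In cHAR123 the number that rose was 0 without cHAR123 replicate 3, 1 without cHAR123 replicate 1 and 7 without hHAR123 replicate 2. The number that fell there was 2 without cHAR123 replicate 3, 3 without cHAR123 replicate 1 or hHAR123 replicate 3, 5 without cHAR123 replicate 2 and 16 without hHAR123 replicate 1. In mHAR123 the number that fell was 2 without hHAR123 replicate 3, mHAR123 replicate 2 or mHAR123 replicate 3.

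**Figure D4:**
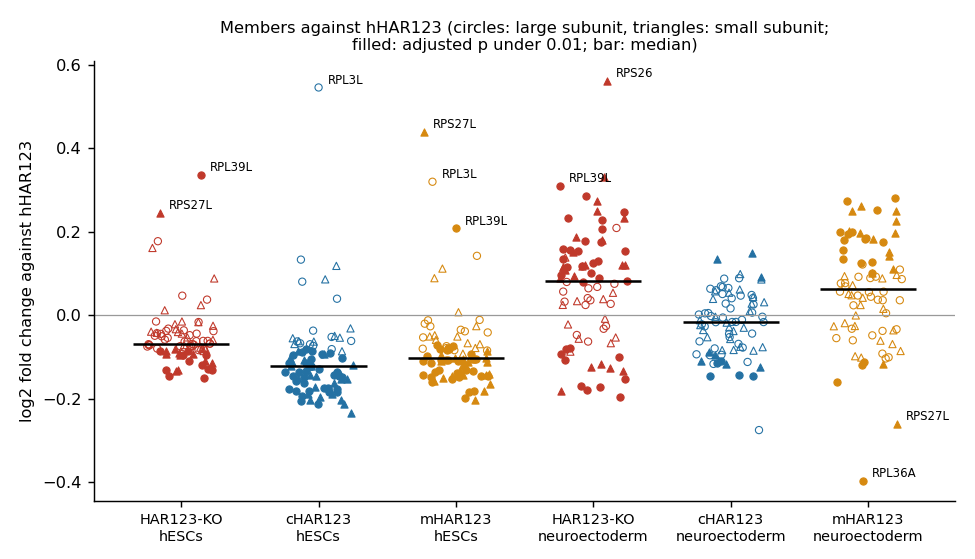
Log2 fold change of each tested member against hHAR123 in hESCs and in neuroectoderm for the 3 edited genotypes. Circles are large-subunit and triangles small-subunit members, filled symbols passed the threshold, and bars are medians. Members lie mostly below 0 in hESCs, and in HAR123-KO and mHAR123 neuroectoderm they lie on both sides of 0.

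RPS26 rose most in HAR123-KO neuroectoderm. It had 47.5, 52.2 and 50.5 scaled CPM in hHAR123, 75.3, 70.3 and 72.9 in HAR123-KO, 49.96, 55.9 and 51.6 in cHAR123 and 57.8, 57.2 and 58.2 in mHAR123. It rose in HAR123-KO (log2 fold change 0.56 ± 0.044, edgeR adjusted p = 7.69e-16) and in mHAR123 (log2 fold change 0.20 ± 0.047, edgeR adjusted p = 0.00137). RPS28, another small-subunit protein near the mRNA exit channel, rose in HAR123-KO from 194, 213 and 210.4 to 253, 252 and 261 scaled CPM (log2 fold change 0.33 ± 0.033, edgeR adjusted p = 2.42e-12), in mHAR123 by 0.25 and in cHAR123 by 0.15. RPL39L rose in HAR123-KO by 0.31 (edgeR adjusted p = 0.00456), a call lost without hHAR123 replicate 1 (0.011), hHAR123 replicate 2 (0.0346) or HAR123-KO replicate 1 (0.0331), and in DESeq2 (0.0679). All 3 stalk genes rose in HAR123-KO, RPLP0 by 0.16, RPLP1 by 0.25 and RPLP2 by 0.18. RPL9, of the large subunit, fell from 611, 592 and 599 to 506, 519.7 and 523 scaled CPM (log2 fold change -0.20 ± 0.027, edgeR adjusted p = 2.46e-08), as did RPS25 (-0.18) and RPL35A (-0.18).

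In mHAR123 neuroectoderm the largest rises were those of RPL28 (chr19:55385932-55403250, plus strand, GRCh38), RPL8 and RPS2. RPL28 had 266, 296 and 297 scaled CPM in hHAR123 and 339.7, 344 and 363 in mHAR123 (log2 fold change 0.28 ± 0.037, edgeR adjusted p = 2.07e-07). RPL8, which lies near the peptidyl transferase centre, had 663, 718 and 704 in hHAR123 and 820.4, 836 and 873 in mHAR123 (log2 fold change 0.27 ± 0.031, edgeR adjusted p = 1.06e-08). RPS2 rose by 0.26. For both RPL28 and RPL8 every mHAR123 library lay above every hHAR123 library. RPL36A fell (log2 fold change -0.40 ± 0.11, edgeR adjusted p = 0.00793), RPS27L fell (log2 fold change -0.26 ± 0.062, edgeR adjusted p = 0.00184) and RPL35A fell by 0.16. The RPL36A call was lost without hHAR123 replicate 1 (edgeR adjusted p = 0.0266) or 3 (0.0483) and without mHAR123 replicate 1 (0.0671) or 3 (0.0258). The RPS27L call was lost without hHAR123 replicate 1 (0.0282) or mHAR123 replicate 2 (0.0194). In cHAR123 RPS28 (0.15), RPS15 (0.13) and RPS2 (0.091) rose and RPL35A (-0.15), RPL34 (-0.15) and RPL9 (-0.14) fell. Each of the 3 rises lost its call without cHAR123 replicate 3 (edgeR adjusted p = 0.0315 for RPS28, 0.051 for RPS15 and 0.0519 for RPS2), as did the fall of RPL35A (0.0132). RPS15 was also lost without hHAR123 replicate 1 (0.0199) or cHAR123 replicate 1 (0.0324), and RPS2 without hHAR123 replicate 3 (0.0126) or cHAR123 replicate 1 (0.0305) or 2 (0.0215).

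In neuroectoderm the members' differences went with base composition. GC content of their canonical transcripts ranged from 40.1% to 63.6% with a median of 47.9%. Across 80 members, the log2 difference from hHAR123 followed GC content with Pearson's r of 0.616 in HAR123-KO, 0.684 in cHAR123 and 0.73 in mHAR123, a description over genes that share the same libraries and the hHAR123 group. Over all genes Pearson's r was 0.103, 0.171 and 0.266. Spearman's rho was 0.693, 0.688 and 0.741 over the members and 0.207, 0.319 and 0.421 over all genes. In hESCs Spearman's rho over 81 members was -0.186 in HAR123-KO, 0.464 in cHAR123 and 0.426 in mHAR123, and Pearson's r was -0.157, 0.276 and 0.19, so in cHAR123 and mHAR123 the coefficients were positive at both stages. The 41 members below the median GC had a median of -0.022 in HAR123-KO and -0.019 in mHAR123, and the 39 at or above it had 0.12 and 0.135. With the trend of all genes on GC removed, an alternative chosen after seeing the data, 23 rose and 5 fell in HAR123-KO, 0 and 1 in cHAR123, and 24 and 0 in mHAR123. Chromosome 19, which holds the most members (12, median GC 57%), had 12 of 12 higher in HAR123-KO, 2 in cHAR123 and 11 in mHAR123, where 26.1%, 8.62% and 16.4% of all its genes were higher. What part base composition has in these differences was not tested further.

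**Figure D5:**
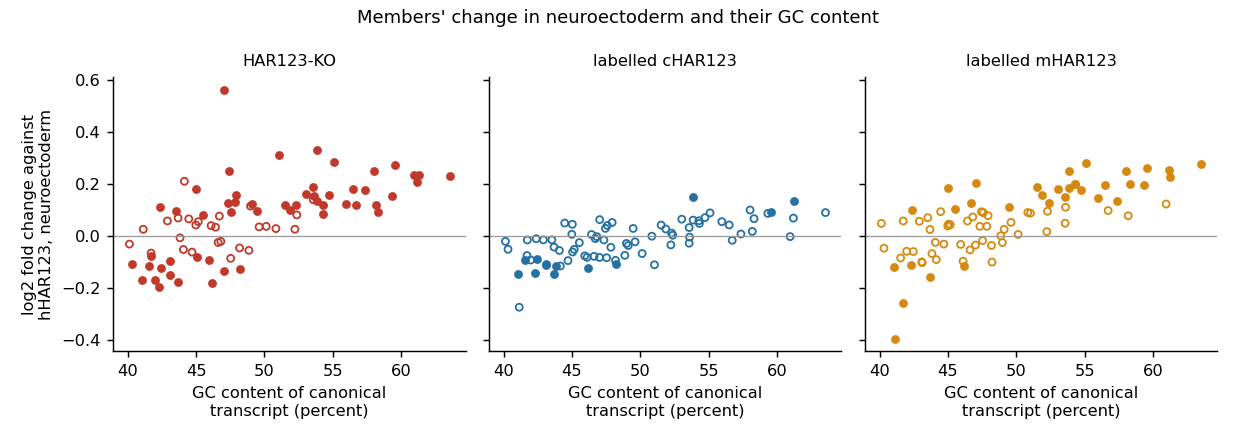
Log2 fold change against hHAR123 in neuroectoderm plotted against GC content of the canonical transcript in percent, 1 point per member and filled where the member passed the threshold, for the 3 edited genotypes. Members of high GC content lie higher in each, with Pearson's r of 0.616 to 0.73.

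Beside these changes, 25 of 42 biogenesis factors rose and 2 fell in HAR123-KO neuroectoderm, led by BOP1 (1.004) and RRS1 (0.75), and 27 of 75 mitochondrial ribosomal protein genes rose and 5 fell. Over all genes 24.2% rose and 19.9% fell there. RPL22L1 rose from 9.88, 10.1 and 9.602 to 15.3, 15.3 and 14.1 scaled CPM (log2 fold change 0.62 ± 0.08, edgeR adjusted p = 3.63e-09). MYCN rose by 2.74 and MYC fell by 1.28. All 8 neural crest markers were higher in these libraries and all 8 neuroectoderm markers lower, so HAR123-KO neuroectoderm differed in its markers as well as in its members. The part of this in the members' differences was not tested. In mHAR123, 8 of 8 neural crest markers were higher and 3 of 8 neuroectoderm markers lower. Summed neural crest markers were also higher in cHAR123 neuroectoderm, at 89.2 to 92.8 TPM against 33.9 to 37.6 TPM in hHAR123. There 3 members rose and 10 fell.

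An interaction term over 12 libraries asked whether a genotype's difference from hHAR123 changed from hESCs to neuroectoderm. In HAR123-KO 41 of 81 members had a higher difference in neuroectoderm than in hESCs and 4 a lower one, against 18.6% and 13.9% of all genes. In cHAR123 34 were higher and 0 lower (5.63% and 3.07%). Of these tested members, 2 were lower at an unadjusted p under 0.05, RPL36A and RPS27L, and 0 in DESeq2. In mHAR123 56 were higher and 2 lower (9.06% and 3.75%). Medians were 0.13, 0.13 and 0.19. With total counts alone the numbers were 27 and 14 in HAR123-KO, 4 and 1 in cHAR123 and 25 and 2 in mHAR123, and with the neuroectoderm labels of cHAR123 and mHAR123 exchanged, also chosen after seeing the data, 58 and 2 in cHAR123 and 23 and 1 in mHAR123. The number higher in cHAR123 was 22 without cHAR123 neuroectoderm replicate 2, and the number lower was 1 without hHAR123 neuroectoderm replicate 2. RPL3L had large interactions that did not pass, of -1.87 in HAR123-KO (edgeR adjusted p = 0.0531), -1.12 in cHAR123 (edgeR adjusted p = 0.308) and -1.96 in mHAR123 (edgeR adjusted p = 0.0596).

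RPS26 had the largest interaction in HAR123-KO (log2 fold change 0.57 ± 0.05, edgeR adjusted p = 9.94e-14): HAR123-KO and hHAR123 overlapped in hESCs and were apart in neuroectoderm. RPL28 (log2 fold change 0.41 ± 0.047, edgeR adjusted p = 4.14e-10) and RPS28 (0.38) followed. RPS27L (-0.32), RPL35A (-0.17) and RPL9 (-0.16) went the other way. The RPS27L call was lost without hHAR123 hESC replicate 3 (edgeR adjusted p = 0.0106), HAR123-KO hESC replicate 2 (0.0115), hHAR123 neuroectoderm replicate 1 (0.0171) or HAR123-KO neuroectoderm replicate 3 (0.0129). In cHAR123 RPL41 (log2 fold change 0.22 ± 0.037, edgeR adjusted p = 1.62e-05), RPS26 (0.22) and RPL30 (0.21) led, with RPS26 lost without hHAR123 neuroectoderm replicate 1 (edgeR adjusted p = 0.0113) or cHAR123 neuroectoderm replicate 2 (0.0335). In mHAR123 RPL28 (0.39), RPL8 (0.38) and RPS2 (0.37) led. RPS27L was the largest in the other direction (log2 fold change -0.68 ± 0.083, edgeR adjusted p = 1.98e-08), being higher than hHAR123 in mHAR123 hESCs and lower in mHAR123 neuroectoderm. RPL36A also went down (log2 fold change -0.52 ± 0.13, edgeR adjusted p = 0.00227), a call lost without hHAR123 neuroectoderm replicate 3 (0.0135) or mHAR123 neuroectoderm replicate 1 (0.0204). These results follow the neuroectoderm labels, whose naming is in question as given above. With total counts alone RPS27L differed from hHAR123 by -0.303 in neuroectoderm labelled mHAR123 (edgeR adjusted p = 0.000473). In neuroectoderm labelled cHAR123 it differed by -0.0913 (edgeR adjusted p = 0.349).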

How the data were processed

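H9 hESC libraries of 4 genotypes and 2 stages were made by the authors with ribosomal RNA depletion and directional preparation, sequenced as paired ends, aligned to GRCh38 with STAR 2.5.2b and counted over exons with featureCounts. The strand, multi-mapping and overlap settings are not given in the sources used here. What the authors deposited are raw counts, 1 value per gene and library. One entry broken over 3 lines was left out. Groups follow the sample labels. Members and lists were chosen with earlier results of these data known. Each pair of groups (6 libraries), and for interactions 12 libraries, was fitted in edgeR 4.0.16 (R 4.3.3) with filterByExpr, TMM and the quasi-likelihood F test, with Benjamini-Hochberg adjustment over all genes tested. Calls were at an adjusted p under 0.01, and at an absolute log2 fold change over 1 where stated. Standard errors were taken as the size of the log2 fold change over the root of F. The code was tested on simulated data. Named members were, per comparison, the 3 largest called changes in each direction (mean of 1 CPM or more), the extremes in TPM, the paralogues with their partners, the stalk and 5S RNP genes and every member called past 1 on the log2 scale. From each other list at most 2 called genes were named. Some results for members that these rules pick are not shown. Library totals of 21022748 to 35198684 counts set the precision. Alternatives were DESeq2, its size factors, total counts, TMM without members, no low-count filter, the replicate number as a block and leaving out each library, and, chosen after seeing the data, removal of the GC trend and exchanged neuroectoderm labels of cHAR123 and mHAR123.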

Additional observations from a re-analysis of the deposited data

Results flagged for a closer look

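The difference of an edited genotype from hHAR123 was itself different between the stages for many members, by the interaction test. In HAR123-KO it was higher in neuroectoderm for 41 members and lower for 4, in cHAR123 for 34 and 0, and in mHAR123 for 56 and 2. On the log2 scale the named interactions in HAR123-KO were 0.57 for RPS26, 0.41 for RPL28, 0.38 for RPS28, -0.32 for RPS27L, -0.17 for RPL35A and -0.16 for RPL9. In cHAR123 they were 0.22 for RPL41, 0.22 for RPS26 and 0.21 for RPL30. In mHAR123 they were 0.39 for RPL28, 0.38 for RPL8, 0.37 for RPS2, -0.68 for RPS27L and -0.52 for RPL36A. Outside the members, 1105 of the 1590 ribosomal protein pseudogenes had at least 1 count in some library.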

How the results depend on the processing

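Of the 152 called results of members named by the rules, 2 changed direction under an alternative: the fall of RPL11 in hHAR123 between stages, which became a rise of 0.166 with total counts (edgeR adjusted p = 1.54e-06), and the rise of RPL3 in HAR123-KO neuroectoderm, which became -0.00812 with the GC trend removed (edgeR adjusted p = 0.82). Calls were lost with the direction kept by 10 in DESeq2, 1 with its size factors, 2 with TMM without members, 29 with the GC trend removed, 26 with total counts, 7 with the replicate block, 8 of the 54 run with exchanged labels and in 85 of 1104 fits with a library left out. Replicate numbers did not pair the libraries (correlations of deviations of same-numbered libraries -0.023 to 0.022), and the replicate block moved 1 count, members lower in cHAR123 neuroectoderm, from 10 to 6. For other counts that moved by over 1.5 times the cause was not tested. In hESCs, DESeq2 gave 1 higher in HAR123-KO and 1 in mHAR123, total counts 11 lower in HAR123-KO and 26 in mHAR123, and no filter 34 lower in HAR123-KO. In neuroectoderm, total counts gave 20 higher in HAR123-KO and 13 lower in mHAR123, no filter 5 higher in cHAR123 and 3 lower in mHAR123, and removal of the GC trend 23 higher and 5 lower in HAR123-KO, 0 higher and 1 lower in cHAR123 and 0 lower in mHAR123. Between stages, total counts gave 48 higher and 25 lower in hHAR123 and 19 lower in each edited genotype, and GC removal 16 higher and 5 past the fold limit in hHAR123. For interactions, total counts gave 27 higher and 14 lower in HAR123-KO, 4 and 1 in cHAR123 and 25 higher in mHAR123, DESeq2 57 higher in cHAR123 and 1 lower in mHAR123, GC removal 0 lower in HAR123-KO, and exchanged labels 58 and 2 in cHAR123 and 23 and 1 in mHAR123.

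Leaving out 1 library gave, for hESCs, 1 to 2 higher and 9 to 35 lower in HAR123-KO and 1 to 2 higher in mHAR123. For neuroectoderm it gave 0 to 7 higher and 2 to 16 lower in cHAR123 and 2 to 7 lower in mHAR123, and for interactions 22 to 45 higher and 0 to 1 lower in cHAR123 and 1 to 2 lower in mHAR123.

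The share ratios against hHAR123 were 0.9372 (HAR123-KO), 0.9078 (cHAR123) and 0.9254 (mHAR123) in hESCs and 1.033 (HAR123-KO) and 1.069 (mHAR123) in neuroectoderm over TMM-scaled totals, and 0.9543 in HAR123-KO hESCs over protein-coding counts. The stage ratios over TMM-scaled totals were 0.9409 (hHAR123, a change of direction), 1.037, 1.04 and 1.087, and over protein-coding counts 1.192, 1.264, 1.24 and 1.276. Members with few counts (RPL10L, RPL3L) are limited by depth.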
